A study of Homo sapiens with 2 samples.

Results

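The transcripts described here belong to 7 genes that make, store, release or carry fatty acids, namely Srebf1, Fasn, Acacb, Lipe, Lpl, Fabp4 and Adig. They were taken by name from the 84 genes of a 96-well adipogenesis PCR array, and all 7 were found in the tables. The array was run on HepG2, an established human hepatoma line used as a model of liver cells. The control sample was HepG2 without extract, and the other sample was HepG2 exposed for 72 h to MOES, a boiled and filtered water extract of Moringa oleifera seeds. The sample title gives 5 mg/mL of MOES and the protocol text 2.5 mg/mL, and the tables do not settle which was run. Each group held 1 sample and each gene 1 value per sample, so no p-value was computed and no difference below has a replicate check.

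In liver cells, fatty acids are built from acetyl-CoA by a short enzyme chain. Acetyl-CoA carboxylase makes malonyl-CoA, fatty acid synthase extends it to palmitate, and the transcription factor SREBP-1, the product of Srebf1, switches on the genes of this chain. Acacb encodes the carboxylase isoform of the outer mitochondrial membrane, whose malonyl-CoA restrains entry of fatty acids into mitochondria for oxidation. Hormone-sensitive lipase (Lipe) frees fatty acids from stored lipid, lipoprotein lipase (Lpl) frees them from circulating lipoproteins at the cell surface, and Fabp4 carries them inside the cell. Adig encodes adipogenin, a small membrane protein of adipocytes linked to fat cell differentiation and lipid droplets.

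Of the 3 genes grouped here as synthesis, Acacb was higher and Fasn and Srebf1 were lower in the MOES sample. Acacb is the mitochondrial isoform, and the array held no other acetyl-CoA carboxylase gene. The 3 genes of lipolysis and uptake, Lipe, Lpl and Fabp4, were all lower, within a narrower range. Adig was 59.3-fold lower than in the control, the lowest of the 5 genes measured below the ceiling in both samples. By the fold change limits of the study's methods, above 1.5 or below 0.5, 1 of the 7 genes (14.3%) was above and 6 (85.7%) were below. Over all 84 genes, 8.33% were above and 67.9% were below, so lower values were common on the whole plate. The median log2 fold change was -2.09 for the 7 genes and -1.77 for the 84, counting each gene recorded at the ceiling at its bound and each gene at the ceiling in both samples at its computed value near 0. These figures rest on B2m, Gusb and Hsp90ab1 as reference genes, the 3 that the deposited delta Ct uses.

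**Figure D1:**
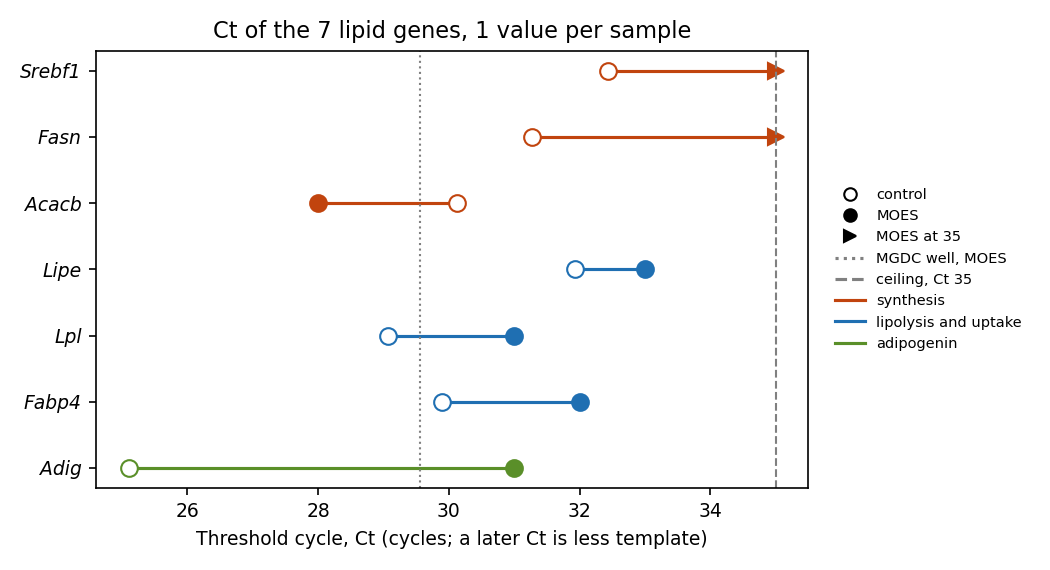
Threshold cycle (Ct, in cycles, on the horizontal axis) of the 7 genes in the control sample (open circles) and the MOES sample (filled symbols), coloured by role. The dashed line marks the ceiling at a Ct of 35, where Fasn and Srebf1 lie in the MOES sample, and the dotted line the genomic DNA control well of the MOES sample at 29.56; Acacb alone moves to an earlier Ct, from 30.13 to 28.

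The Acacb well reached its Ct at cycle 30.13 in the control and at cycle 28 with MOES. The Ct is the PCR cycle where the dye signal passes a fixed threshold, so an earlier Ct stands for more template. The delta Ct subtracts the average Ct of the reference genes and was 5.21 without MOES and 3.07 with it. The fold change was 4.41, the second highest of the 84 genes. Acacb thereby went from the fourth place among the 7 genes in the control, by Ct, to the first in the MOES sample. Every MOES value of the 84 array genes was a whole cycle or the ceiling, and no control value of the 7 genes was a whole number. The MOES wells of the reference genes B2m, Gusb and Hsp90ab1 were not whole, at 23.82, 25.66 and 25.3. If the true MOES Ct lay up to 0.5 cycle to either side of the recorded one, the fold change of Acacb would lie between 3.12 and 6.23. Such shifts of 0.5 cycle, here and below, assume rounding to the nearest cycle, and how the values became whole is unknown.

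Fasn, which encodes the enzyme that makes palmitate, was recorded at a Ct of 31.27 without MOES and at 35 with it. A Ct of 35 is the highest value in the tables and was read as a ceiling. The Fasn level was thus at least 13.2-fold lower, provided that the PCR worked in that well and that 35 was not rounded up. This bound also takes a doubling of template per cycle, as all fold values here do, and B2m, Gusb and Hsp90ab1 as reference. Srebf1 went from a Ct of 32.44 to the same ceiling, a level at least 5.86-fold lower. Its control well was the latest of the 7 and left only 2.56 cycles to the ceiling, so a larger difference could not have been recorded. Fasn and Srebf1 were the only members at 35 in the MOES sample, where 25 of the 84 genes were, and none of the 7 was at 35 in the control. Which of the pair was lowered more is unknown, since both changes are bounds.

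Taking the Ct values as recorded, Acacb exceeded Fasn by at least 5.86 on the log2 fold change scale, a factor of at least 58.1. It exceeded Srebf1 by at least 4.69. With the MOES wells below 35 raised by 0.5 cycle, the computed excess over Fasn was 5.36. The reference genes cancel in such differences. The 3 reverse transcription control wells of the control sample served to estimate the spread of wells, and for a difference of 2 wells this gave an SD of 0.530 cycles. It describes wells of a single plate and holds no variation between cultures. By this yardstick, 6 of the 7 genes differed between samples by more than 2 SDs, beside 60 of all 84 (71.4%), and Lipe, at a log2 fold change of -1.06, was just under that size.

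The upstream sequences of Acacb, the only member that was higher, of Adig and of the lipogenic factor are shown for context, as RefSeq lists them on GRCh38.p14, each with 250 bases before and 50 after the start of transcription. The table held promoters for 4 of the 7 genes. ACACB has 2 listed starts, at chr12:109116337-109116636 and chr12:109154429-109154728 on the plus strand, SREBF1 has 1 at chr17:17836937-17837236 on the minus strand, and ADIG has 1 at chr20:38580947-38581246 on the plus strand. Capitals mark motif matches on either strand. The motifs are the GC box with the letters GGGCGG, the box named for its letters CCAAT, the TATA box with the letters TATAAA, the E-box with the letters CACGTG, and the letters CACCCCA as a core of the sterol element, which binds SREBP proteins. In the printed windows no matches overlapped.
ACACB, upstream start: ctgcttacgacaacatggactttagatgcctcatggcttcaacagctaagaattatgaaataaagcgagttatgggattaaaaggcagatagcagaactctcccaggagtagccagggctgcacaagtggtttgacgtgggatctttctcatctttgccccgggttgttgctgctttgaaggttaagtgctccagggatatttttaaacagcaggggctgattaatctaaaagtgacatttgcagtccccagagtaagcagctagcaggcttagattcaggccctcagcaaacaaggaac
ACACB, downstream start: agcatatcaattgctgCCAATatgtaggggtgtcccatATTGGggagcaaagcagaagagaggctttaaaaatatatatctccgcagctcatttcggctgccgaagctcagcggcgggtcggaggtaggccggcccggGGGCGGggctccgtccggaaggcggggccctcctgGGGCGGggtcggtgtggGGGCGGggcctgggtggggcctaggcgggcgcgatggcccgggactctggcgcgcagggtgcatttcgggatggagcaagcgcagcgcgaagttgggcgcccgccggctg
SREBF1: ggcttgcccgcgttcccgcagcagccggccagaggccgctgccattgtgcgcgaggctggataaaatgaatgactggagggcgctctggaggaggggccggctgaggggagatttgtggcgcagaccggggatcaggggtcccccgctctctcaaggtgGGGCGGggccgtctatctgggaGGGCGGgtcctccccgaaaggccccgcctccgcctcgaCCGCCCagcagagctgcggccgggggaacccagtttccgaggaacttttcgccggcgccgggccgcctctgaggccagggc
ADIG: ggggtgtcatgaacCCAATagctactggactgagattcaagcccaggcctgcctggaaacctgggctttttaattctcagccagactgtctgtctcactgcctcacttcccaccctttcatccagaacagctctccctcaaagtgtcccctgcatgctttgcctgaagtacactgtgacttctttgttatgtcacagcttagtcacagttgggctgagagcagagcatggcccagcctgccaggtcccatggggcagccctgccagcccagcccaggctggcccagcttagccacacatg

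The downstream ACACB window held 3 GC boxes and 2 CCAAT boxes, and the upstream one held no match to any of the motifs. The SREBF1 window held 3 GC boxes, and the ADIG window held 1 CCAAT box and no GC box. Among the 35116 windows of this length in the table, 45% held a GC box, 34.6% a CCAAT box, 11.5% a TATA box, 7.26% the E-box and 8.08% the sterol element core. No window printed here held the TATA box, the E-box or the sterol element core in these letters. The 2 listed LIPE windows, not printed, held 1 and 4 CCAAT boxes, and 1 of them held a sterol element core. These matches are descriptions of letters, and the array does not tell which start of ACACB was transcribed.

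The genes of lipolysis and uptake were all measured below the ceiling in both samples. Lipe went from a Ct of 31.93 without MOES to 33 with it, and its level was 2.08-fold lower. It was the smallest difference of the 7 and the one nearest the lower limit, with a fold change of 0.480. A MOES Ct 0.5 cycle earlier would make Lipe 1.47-fold lower and no longer below that limit. Lpl, the lipase that acts on lipoproteins, went from 29.07 to 31, a level 3.78-fold lower. Fabp4, the fatty acid carrier, went from 29.9 to 32, a level 4.26-fold lower.

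Lpl and Fabp4 did not differ from each other beyond the spread of wells, with log2 fold changes 0.17 apart. Lipe stood 0.86 above Lpl and 1.03 above Fabp4 on the same scale. Such a difference rests on more wells than the 2 behind the SD given above, which is therefore too small for it. Whether Lipe lay beyond the spread of wells was not tested.

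The 2 sets, synthesis and lipolysis with uptake, were set against each other, and the bounds here take the Ct values as recorded. The mean log2 fold change was at most -1.38 for the synthesis genes, which ran from at most -3.72 for Fasn to 2.14 for Acacb. It was -1.69 for Lipe, Lpl and Fabp4, which ran from -2.09 to -1.06. The difference of the means, synthesis minus the others, was at most 0.31, so its sign is unknown, and that of the medians was at most -0.63. With the MOES wells below 35 raised by 0.5 cycle, the computed difference of the means was 0.65. Leaving out Acacb, the mean of Srebf1 and Fasn was at most -3.13. This mean lay at least 1.44 below that of lipolysis and uptake, a factor of at least 2.72. Acacb was left out with its value known, as the only higher member. That choice lowers the synthesis mean by construction, so the difference without Acacb is a description only. Acacb itself lay 3.83 above the mean of lipolysis and uptake.

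Adig, a gene of adipocytes, was the earliest of the 7 in the control, with a Ct of 25.1 and a delta Ct of 0.18, which is close to the level of the reference genes. Only 4 array genes had an earlier well there. In the MOES sample its Ct was 31 and its delta Ct 6.07. The log2 fold change was -5.89, the 81st of 84 from the highest with bounds ranked as they stand, and a MOES Ct 0.5 cycle later or earlier would give a level between 41.9-fold and 83.9-fold lower. Adig lay 8.03 below Acacb on the log2 scale. Fasn and Srebf1 are known only as bounds and could lie below Adig.

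**Figure D2:**
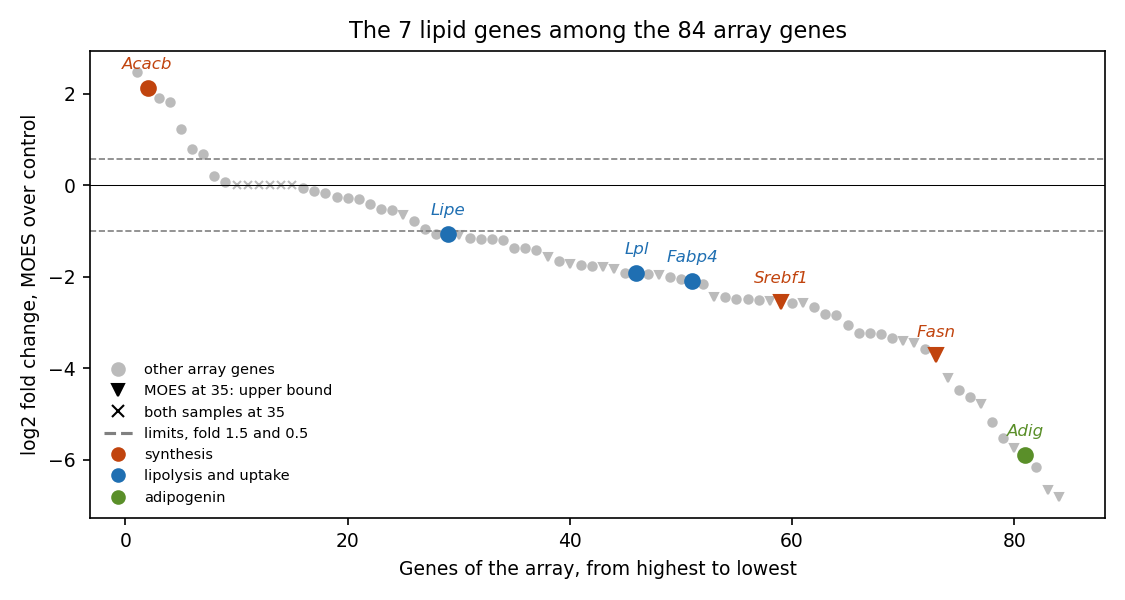
Log2 fold change of MOES over control (vertical axis) for the 84 array genes, ordered from highest to lowest, with the 7 lipid genes coloured by role and named. Triangles are upper bounds from MOES wells at a Ct of 35 and crosses are genes at 35 in both samples; Acacb stands second from the highest and Adig 81st, with the other members between.

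The order of the wells changed between samples. By Ct in the control, Adig came first, then Lpl, Fabp4, Acacb, Fasn, Lipe and Srebf1. Neighbours within the spread of wells were Fabp4 and Acacb, 0.23 cycles apart, and Lipe and Srebf1, 0.51 apart. In the MOES sample Acacb came first, Adig and Lpl shared a Ct of 31, and Fabp4 and Lipe followed, with Fasn and Srebf1 together at the ceiling. Assays of different genes can differ in efficiency, so this order describes the wells and not transcript numbers.

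The array gene most like each member, by distance in delta Ct over the 2 samples, was sought among the genes below 35 in both. Fabp4 lay 0.03 cycles from Fgf2, a growth factor, with a log2 fold change of -2.06. Lipe lay 0.11 cycles from Prdm16, a regulator of brown fat identity, with -1.17. Adig lay 1.18 cycles from Ppargc1a and Acacb 1.56 from Ddit3, and Lpl lay more than a cycle from both Klf2 and Taz, which tied as its nearest, with log2 fold changes of -1.06 and -3.06. The nearest gene to Acacb, Ddit3, had a log2 fold change of -0.06, against 2.14 for Acacb. Distances over 2 points are descriptions and say little of likeness. Fasn and Srebf1 have no distance, being at the ceiling.

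The direction of the 7 genes depended on the reference. B2m, Gusb and Hsp90ab1 had Ct values within 0.02 cycles between samples, while Gapdh went from 28.46 to 35 and Actb from 34.05 to 35. Any other reference adds the same amount to each gene, and this amount is a minimum where the reference includes Actb or Gapdh. With Actb alone, Acacb was above 0 on the log2 scale. The others were below 0 as computed, with Lipe at -0.12, Lpl at -0.98 and Fabp4 at -1.15, and each may lie above 0. With all 5 reference genes or with the median Ct of the 84 genes, Acacb and Lipe were above 0 and the others below as computed. With the former these values, 3.63 and 0.43, are minima. So are those of Lpl, -0.43, Fabp4, -0.60, and Adig, -4.40, which may lie above 0. With Gapdh alone, all 7 were above 0 as computed, from 0.64 for Adig to 8.67 for Acacb, but Fasn and Srebf1 shared the ceiling with Gapdh and their direction is unknown. Since the added amount is the same for each gene, Acacb stayed the highest of the 7 by construction. As computed, it was the only one above the upper limit with each reference except Gapdh.

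**Figure D3:**
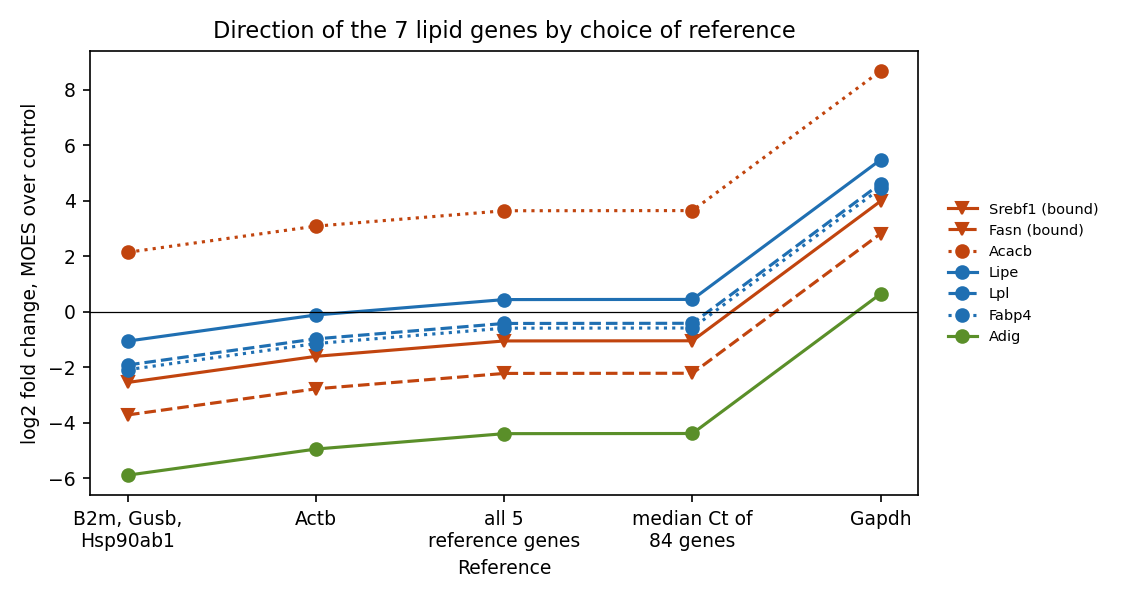
Log2 fold change of MOES over control (vertical axis) for each of the 7 genes under 5 choices of reference (horizontal axis), with triangles for the bounds of Fasn and Srebf1. The lines are parallel because a reference shifts each gene by the same amount. With Actb or Gapdh in the reference this amount is a minimum, so the circles are minima and the triangles bound neither direction. As drawn, Acacb is the highest line throughout, and Adig crosses 0 only with Gapdh.

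Among 17 other array genes that regulate or accompany the 7, 1 was above the upper limit, 15 were below the lower one and Cebpa lay between, with a median log2 fold change of -2.44. Of the 15, 4 were bounds with the MOES well at 35. These shares, 5.88% and 88.2%, stand beside 8.33% and 67.9% over the 84 genes. Among the nuclear receptors in that list, Pparg, the master regulator of fat cells, was 36.0-fold lower, and Rxra, its partner, had a fold change of 0.0830. Nr1h3, the LXR-alpha receptor that raises Srebf1 transcription in liver, went from a Ct of 32.55 to 35, at least 5.43-fold lower. Ppara, which drives fatty acid oxidation, was 22.3-fold lower, and its coactivator Ppargc1a 45.9-fold lower. Ppard, a PPAR receptor outside the list and named after its values were seen, had a fold change of 1.73.

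Insr, the receptor of insulin, which stimulates lipogenesis, had a log2 fold change of -1.37, and its substrates Irs1 and Irs2 had -1.92 and -3.34. Foxo1, a factor that insulin restrains, had -2.16. With the mean of all 5 reference genes Insr would stand above 0. Cebpd, an early factor of adipogenesis, was the only gene of this list above the upper limit, with a fold change of 5.58, and with Acacb it held the 2 highest places of the array.

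**Figure D4:**
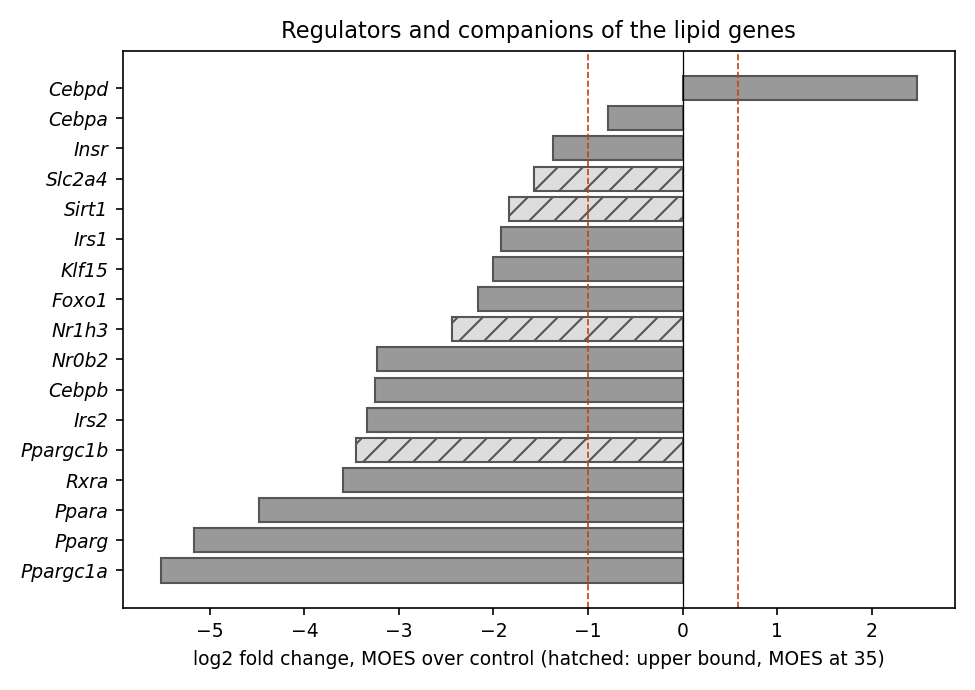
Log2 fold change of MOES over control (horizontal axis) for 17 array genes that regulate or accompany the lipid genes, with dashed lines at fold changes of 1.5 and 0.5. Hatched bars are upper bounds with the MOES well at a Ct of 35; Cebpd alone is above the upper limit and Cebpa lies between the limits.

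The wells that check the assay bear on these values. The 3 positive PCR control wells were at 35 in both samples, so no control shows that PCR worked in a well at 35, and the bounds of Fasn and Srebf1 rest on that assumption. The 3 reverse transcription control wells were between 31.41 and 32.1 without MOES and at 35 with it. Against the reference genes, their log2 fold changes were at most -2.89, -2.98 and -3.58, lower than the measured values of Lipe, Lpl and Fabp4. The genomic DNA control well went from a Ct of 29.9 to 29.56. In the control 5 of the 7 genes had a Ct equal to or later than this well, and in the MOES sample 6 of 7 did, all but Acacb. Over the array, 49 of 84 genes (58.3%) and 69 of 84 (82.1%) did. The part of reverse transcription or of genomic DNA in the members' values was not tested.

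Few array genes bear on the label of a liver cell, and their assays can differ in efficiency, so the Ct values below are given without a verdict. Agt, an abundant product of hepatocytes, had a Ct of 33.91 in the control, later than each of the 7 lipid genes. Among the secreted products of adipocytes, Adipoq, Cfd and Retn had Ct values of 27.37, 26.24 and 27.61, and Lep 33.89. Of the brown fat genes, Ucp1 had 29.5, Dio2 31.23 and Prdm16 31.82. The other liver-enriched genes, Nr0b2, Ppara and Cebpa, lay between 28.51 and 31.2. The tables write gene symbols in mouse style, give mouse clone names among the aliases of Fasn and Lipe, and call the genomic DNA well MGDC, whereas the labels name the human array. Which primers the wells held cannot be told from the tables.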

How the data were processed

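cDNA of 2 HepG2 samples was run by the authors on a SYBR Green PCR array, and web software of the array's maker gave the values. The authors deposited the Ct per well, called an average in the header, with standard deviation columns that hold no number. They also deposited the delta Ct, on a log2 scale with its sign reversed, as well as relative levels and their own fold changes, which were not used. The treated column was taken to be the group that the fold change header sets against the control. Over 31 subsets of the reference genes, B2m, Gusb and Hsp90ab1 matched the deposited delta Ct best, with a largest gap of 0.0057 cycles.

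Here the log2 fold change was the control delta Ct minus the MOES delta Ct, each computed from Ct. Depth has no counterpart in PCR, and precision is limited by 1 sample per group and whole-cycle MOES values. The 16 alternatives covered references, late wells, rounding, source and limits. The 7 genes, the list of 17 and the markers were chosen with earlier results of these data known. Named genes were the members, these lists, the control wells and each member's nearest gene. A further gene of that list is not reported here. All 7 symbols matched RefSeq symbols in upper case. The calculation was tested on simulated data without noise, ceiling or whole-cycle rounding, so this test checked the arithmetic only. Python 3.11.15, numpy 2.4.6 and matplotlib 3.10.9 were used.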

Additional observations from a re-analysis of the deposited data

Results flagged for a closer look

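Relative to the reference genes, the genomic DNA control well, which no comparison of genes uses, stood higher with MOES than without, at a log2 fold change of 0.35. This is under the 0.530 cycles given above as the SD of a difference of 2 wells.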

How the results depend on the processing

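No paired analysis was possible because the design has 1 sample per group. With Gapdh alone as reference, as computed, 7 members were above 1.5 and 0 below 0.5, with a median log2 fold change of 4.44. The values of the 6 lower members became 3.98 for Srebf1, 2.81 for Fasn, 5.47 for Lipe, 4.61 for Lpl, 4.44 for Fabp4 and 0.64 for Adig. Srebf1 and Fasn shared the ceiling with Gapdh, so their direction is unknown. In the list of 17, 17 were then above and 0 below as computed, but the direction of the 4 at 35 with MOES is unknown. The mean of all 5 reference genes and the median Ct of the 84 genes each left 3 members below 0.5, with medians of -0.60 and -0.59, put Lipe at 0.43 and 0.44, and gave 2 of the 17 above and 8 below. Actb alone gave a median of -1.15, and as computed left 4 members and 11 of the 17 below 0.5. With Ct above 32 set to 32, which by construction removes later differences, 3 members were below 0.5, the median was -0.72, Srebf1 was at 0.01, synthesis exceeded lipolysis and uptake by 1.83, and Acacb exceeded Fasn by 2.86. Restricting the genes to those with Ct values under 30 kept no member and left 3 of the 17 below. Leaving out genes at 35 kept 5 members and gave no value for the median or the differences. The other settings, namely single reference genes among B2m, Gusb and Hsp90ab1, the deposited delta Ct, shifts of 0.5 cycle, rounding of the control and other limits, left each count within 1.5 times and each median and difference within 1 SD of a difference between wells. The ceiling limits Fasn and Srebf1.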
